A study of Mus musculus with 9 samples.

Results

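The 10 genes described here are Pdgfra, Cspg4, Neu4, C1ql1, Olig1, Olig2, Sox10, Gpr17, Bmp4 and Lhfpl3, which mark oligodendrocyte precursors or the cells just leaving that state. They were chosen by name, with earlier results of these data known. Each had its own line among the 18474 protein-coding genes of the deposited table. All 10 passed the filter on low counts, which left 14752 genes tested. The study took the hippocampus of wild-type mice in 3 groups, from which 3 mice each were drawn at random for RNA sequencing, so each library is 1 animal. The sham group had sham surgery and a control treatment, the KA group had kainic acid, an agonist of glutamate receptors used to make mice epileptic, and the KA+NBP group had kainic acid and NBP, read here as the butylphthalide named in the study's title. All groups were sampled at day 30, and the dose, route, age, sex and strain are not given in the sources used here. The question was how these genes stood after KA, and after KA with NBP, relative to sham.

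Oligodendrocyte precursors, also called NG2 glia, are dividing glial cells spread through grey and white matter. They are held in the precursor state by platelet-derived growth factor acting on the receptor PDGFRA, and the transcription factors OLIG1, OLIG2 and SOX10 run through the whole lineage. As they commit to becoming oligodendrocytes they lose PDGFRA and the NG2 proteoglycan, pass through a stage marked by GPR17 and BMP4, and then make myelin proteins.

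The 9 libraries held between 15699251 and 16374637 estimated counts over the genes of the table, and 3 counts corresponded to 0.177 to 0.191 CPM. CPM is a gene's count as a share of its library, scaled here by edgeR's TMM factors, which correct for composition. Markers of neurons were present throughout, with summed levels of 4925 to 7009 TPM, a share of the library corrected for transcript length. KA+NBP replicate 2 stood apart: its choroid plexus markers summed to 2621 TPM against 22.4 to 102 TPM in the other 8 libraries, and its astrocyte markers to 5790 TPM against 2575 and 2749 TPM in the other KA+NBP libraries. In whole tissue, fewer cells of a type and less RNA per cell cannot be told apart.

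At day 30, 8 of the 10 genes were higher in KA than in sham and none was lower, beside 19.0% higher and 14.6% lower among all genes tested. The count of 8 was 4 without sham replicate 1 or 3 and 5 without any 1 KA library. The increases ran from 1.23-fold for Olig1 to 3.12-fold for Bmp4, with Lhfpl3 at 2.87-fold, Gpr17 at 1.94-fold and Neu4 at 1.81-fold. Pdgfra, the receptor that defines the cells, and Sox10 did not pass the threshold. After KA with NBP, C1ql1, Cspg4, Lhfpl3, Neu4 and Olig1 were lower than after KA alone, beside 12.7% of all genes tested. That count of 5 was 8 without KA+NBP replicate 2 and 2 without KA+NBP replicate 3. None of the 10 genes passed the threshold against sham, and by edgeR neither did any other of the 14752 genes tested.

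**Figure D1:**
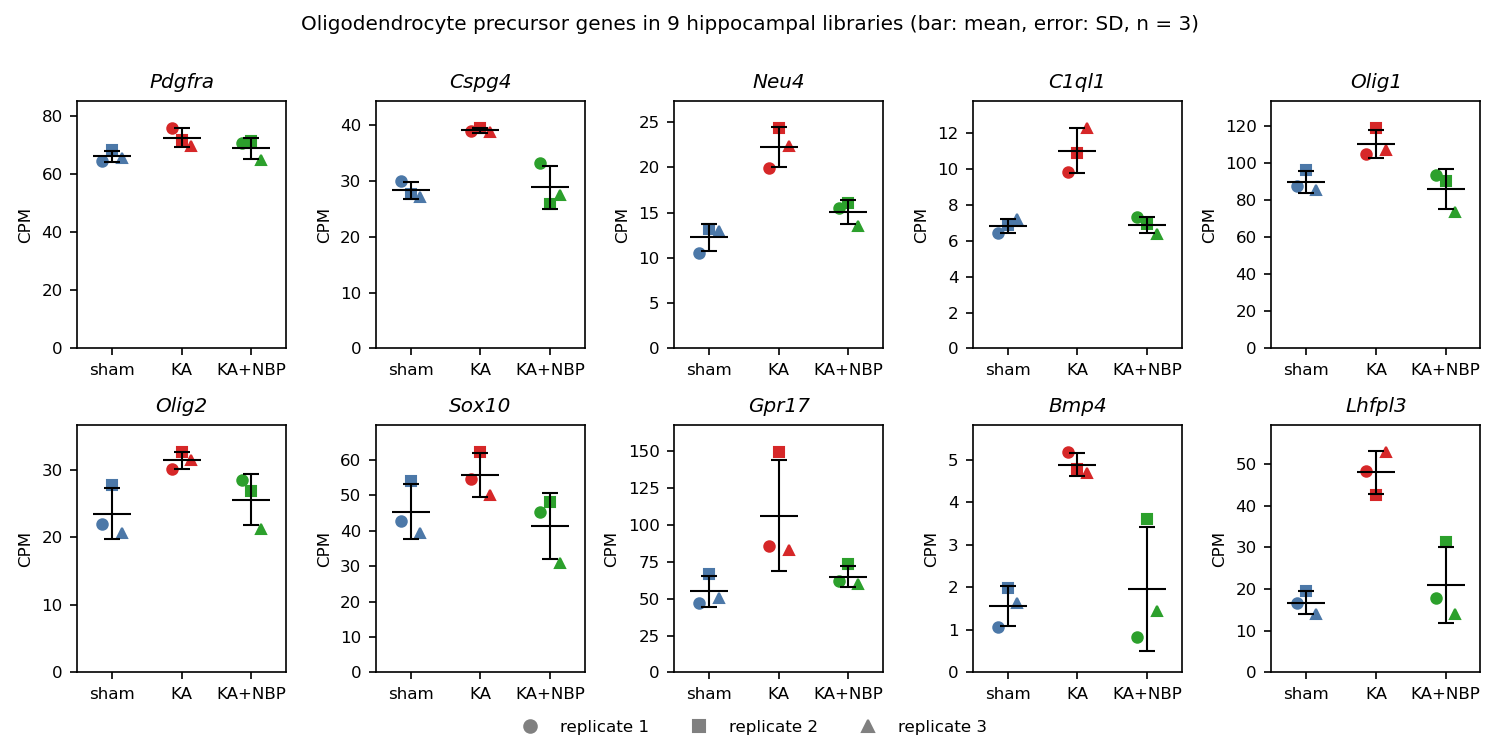
Level of each of the 10 genes in each library, in TMM-scaled CPM on an axis that starts at 0. Points are libraries, with the symbol giving the replicate number, long bars are means and error bars are SD (n = 3). The 3 KA libraries lie above all 3 sham libraries for every gene but Sox10, with Gpr17 reaching 150 CPM in KA replicate 2.

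Among the surface proteins, Pdgfra (gene 18595, on GRCm39, as for all genes below, chr5:75311988-75358867, plus strand) stood at 64.6, 68.4 and 65.5 CPM in sham, at 76.1, 71.9 and 69.6 CPM in KA, and at 70.7, 71.4 and 64.7 CPM in KA+NBP. Its KA libraries all lay above its sham libraries by a narrow margin, and the KA+NBP libraries overlapped both groups. The log2 fold change in KA was 0.13 (SE 0.06, 95% interval -0.01 to 0.28, edgeR adjusted p = 0.142), so a change beyond 1.21-fold lay outside the interval. Cspg4 (gene 121021, chr9:56772388-56807154, plus strand), which encodes the core protein of NG2, stood at 30.1, 27.7 and 27.1 CPM in sham, 39.0, 39.6 and 38.7 CPM in KA, and 33.2, 25.8 and 27.6 CPM in KA+NBP. The KA libraries agreed to within an SD of 0.438 CPM and lay above all 6 other libraries. Cspg4 rose in KA by 0.47 on the log2 scale (SE 0.10, edgeR adjusted p = 0.00727). Cspg4 is also expressed by pericytes and smooth muscle cells of vessels. Of 11 markers of those mural cells, 9 rose in KA, beside 19.0% of all genes tested. The summed level of the 11 was 313 to 375 TPM in KA, 196 to 242 TPM in sham and 162 to 303 TPM in KA+NBP, with no marker at 0 in any library. With sham replicate 1 left out 4 mural markers passed, and 5 did without sham replicate 2 or without KA replicate 2. Their part in the Cspg4 result was not tested. Pdgfra likewise marks fibroblasts of the meninges and vessel walls. Of 10 fibroblast and meningeal markers, 4 rose in KA, beside 19.0% of all genes tested. The summed level of the 10 was 578 to 590 TPM in KA, 165 to 205 TPM in sham and 144 to 356 TPM in KA+NBP, and none of these genes was at 0 in any library. The 4 were Igfbp2, Serpinf1, Dcn and Fbln1, and 6 did not pass, Col1a1, Col1a2, Col3a1 and Lum among them. Most of the rise in the sum came from Igfbp2 and Serpinf1. Their means were 42.25 and 19.9 TPM in sham and 217 and 163 TPM in KA. The count of 4 was 2 without any 1 of the sham libraries, KA replicate 1 or KA replicate 2, 7 without KA+NBP replicate 1 or 3, and 10 without KA+NBP replicate 2. Their part in the Pdgfra level was not tested.

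Among the lineage transcription factors, Olig1 and Olig2 had the smallest increases of the 8 genes that rose, and Sox10 did not pass. Olig1 (gene 50914, chr16:91066657-91125885, plus strand) stood at 87.5, 96.4 and 85.4 CPM in sham, 105, 119 and 107 CPM in KA, and 93.6, 90.2 and 73.7 CPM in KA+NBP. The lowest KA library was above the highest sham library, and KA+NBP replicate 3 was the lowest of the 9. The log2 fold change in KA was 0.30 (SE 0.10, edgeR adjusted p = 0.0462), close to the threshold. Olig2 (gene 50913, chr16:91016745-91025567, plus strand), the neighbouring paralog without which the lineage does not form, stood at 21.9, 27.8 and 20.7 CPM in sham, 30.2, 32.7 and 31.4 CPM in KA, and 28.5, 26.9 and 21.3 CPM in KA+NBP. Sham replicate 2 came nearest to the KA libraries, and the log2 fold change was 0.42 (SE 0.13, edgeR adjusted p = 0.0396). Sox10 (gene 20665, chr15:79039113-79048690, minus strand), which drives myelin genes, stood at 42.6, 54.0 and 39.2 CPM in sham, 54.6, 62.3 and 50 CPM in KA, and 45.2, 48.0 and 30.8 CPM in KA+NBP. Sham replicate 2 lay within the KA range. The log2 fold change of Sox10 in KA was 0.30 (SE 0.18, 95% interval -0.10 to 0.69, edgeR adjusted p = 0.220), an interval that reaches 1.62-fold.

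Neu4, C1ql1 and Lhfpl3 are enriched in precursors in brain cell surveys. Neu4 (gene 241159, chr1:93948215-93956056, plus strand) encodes a sialidase, an enzyme that removes sialic acid from glycans. It stood at 10.6, 13.2 and 13.0 CPM in sham, 19.9, 24.4 and 22.4 CPM in KA, and 15.6, 16.1 and 13.6 CPM in KA+NBP. The groups did not overlap in either direction, with KA+NBP between the other groups, and the log2 fold change in KA was 0.86 (SE 0.12, edgeR adjusted p = 0.00210). C1ql1 (gene 23829, chr11:102830090-102837542, minus strand) encodes a secreted protein of the C1q family that binds the adhesion receptor ADGRB3. It stood at 6.42, 6.90 and 7.22 CPM in sham, 9.86, 10.9 and 12.3 CPM in KA, and 7.31, 6.97 and 6.40 CPM in KA+NBP. KA stood clear of both other groups, which overlapped, and C1ql1 rose by 0.69 on the log2 scale (SE 0.13, edgeR adjusted p = 0.00504). Lhfpl3 (gene 269629, chr5:22951052-23480595, plus strand) encodes a tetraspan membrane protein. It stood at 16.6, 19.5 and 14.0 CPM in sham, 48.2, 42.6 and 53.0 CPM in KA, and 17.7, 31.2 and 14.0 CPM in KA+NBP. KA+NBP replicate 2 lay between sham and KA, while replicates 1 and 3 lay within the sham range. The log2 fold change of Lhfpl3 in KA was 1.52 (SE 0.26, edgeR adjusted p = 0.00388).

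Gpr17 and Bmp4, the 2 markers of commitment among the 10 genes, rose too. Of 10 other genes of committed precursors and newly formed oligodendrocytes, described below, 3 rose and 1 fell. Gpr17 (gene 574402, chr18:32076052-32082925, minus strand), a receptor that peaks in committed precursors and then is lost, stood at 47.0, 66.9 and 50.5 CPM in sham, 85.9, 150 and 82.8 CPM in KA, and 61.8, 73.1 and 59.6 CPM in KA+NBP. KA replicate 2 was far above the other KA libraries, yet the lowest KA library still exceeded every sham and KA+NBP library. Gpr17 rose by 0.95 on the log2 scale (SE 0.23, edgeR adjusted p = 0.0136). Bmp4 (gene 12159, chr14:46620982-46628126, minus strand) encodes a secreted bone morphogenetic protein that holds back oligodendrocyte maturation. It stood at 1.06, 1.99 and 1.63 CPM in sham, 5.19, 4.79 and 4.69 CPM in KA, and 0.826, 3.61 and 1.44 CPM in KA+NBP. The sham libraries gave these values from 17, 32 and 26 counts, the KA libraries from 88, 78 and 76, and the KA+NBP libraries from 13, 59 and 23. The KA libraries lay close together and above all others, while KA+NBP ran from below the lowest sham library to 3.61 CPM in replicate 2. Bmp4 rose in KA by 1.64 on the log2 scale (SE 0.46, edgeR adjusted p = 0.0236).

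Of the 14752 genes tested, 33.6% were called in KA against sham, 19.0% higher and 14.6% lower. KA libraries all lay above the sham libraries for 29.3% of genes and all below for 27.0%. Among the 10 genes 8 were called higher, none was called lower, and 9 had KA libraries all above sham. The median log2 fold change was 0.58 over the 10 genes and 0.01 over all genes tested. Because the genes were chosen with earlier results of these data known, these comparisons with all genes are descriptive. Neu4, C1ql1, Cspg4 and Lhfpl3 stayed past the threshold under all 16 alternative settings. Without sham replicate 1 or sham replicate 3 the count was 4 of 10, and without any 1 KA library it was 5 of 10. Olig2 and Bmp4 did not pass in any of those 5 fits (edgeR adjusted p = 0.0680 to 0.138 and 0.0549 to 0.0898). Gpr17 did not pass without sham replicate 1 or 3 (adjusted p = 0.0586 and 0.0557 by edgeR), and Olig1 did not pass without any 1 sham or KA library (adjusted p = 0.0645 to 0.148 by edgeR).

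**Figure D2:**
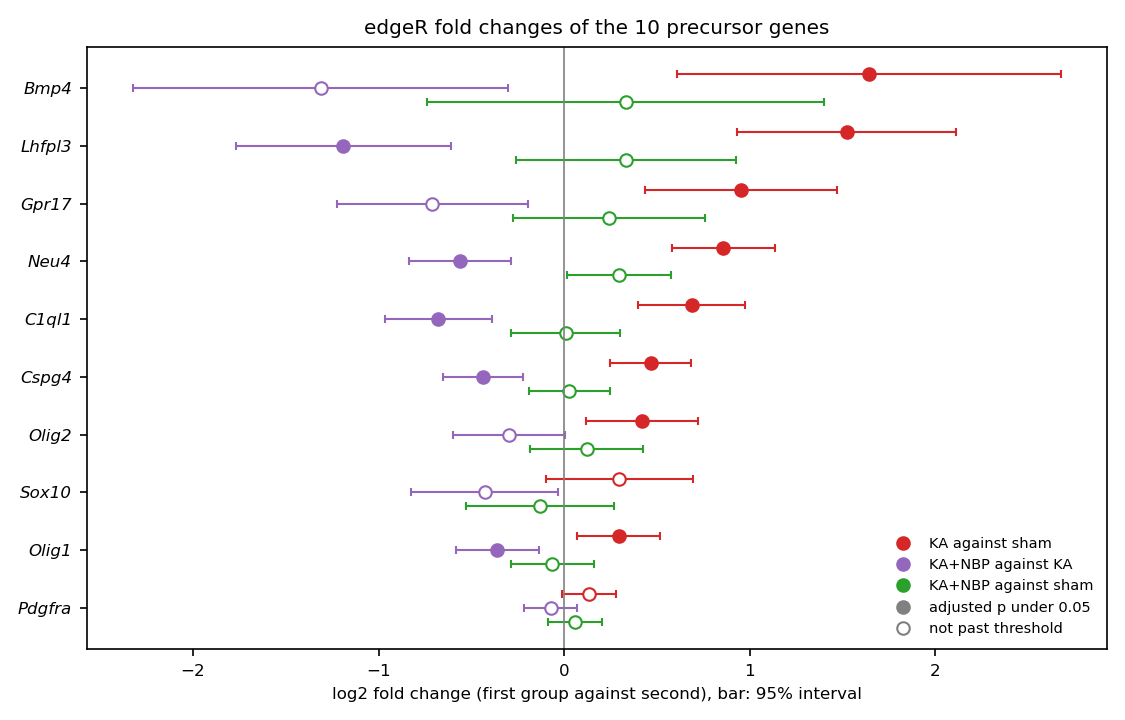
Log2 fold change of each gene by edgeR in the 3 comparisons, with 95% intervals as bars. Filled points passed an adjusted p of 0.05 and open points did not. All 10 points for KA against sham lie above 0 and all 10 for KA+NBP against KA below it, while none for KA+NBP against sham is filled.

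The sequence upstream of 3 of these genes is shown because Bmp4 and Lhfpl3 had the largest fold changes and Pdgfra the smallest. Each is the RefSeq window of 250 bases that ends 1 base before the annotated start site, on GRCm38.p6, read 5′ to 3′ on the gene's strand. Capitals mark an E-box of either of the forms CAGCTG and CAGATG, searched on both strands together with the SOX core motifs ACAAAG and ACAATG. The windows are chr14:46390670-46390919 (minus strand) for Bmp4, chr5:22745804-22746053 (plus strand) for Lhfpl3 and chr5:75152001-75152250 (plus strand) for Pdgfra.
Bmp4: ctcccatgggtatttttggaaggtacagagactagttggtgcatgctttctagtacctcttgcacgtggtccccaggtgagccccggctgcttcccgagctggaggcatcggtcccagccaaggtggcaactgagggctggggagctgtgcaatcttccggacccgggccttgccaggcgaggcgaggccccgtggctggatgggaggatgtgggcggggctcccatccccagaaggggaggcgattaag
Lhfpl3: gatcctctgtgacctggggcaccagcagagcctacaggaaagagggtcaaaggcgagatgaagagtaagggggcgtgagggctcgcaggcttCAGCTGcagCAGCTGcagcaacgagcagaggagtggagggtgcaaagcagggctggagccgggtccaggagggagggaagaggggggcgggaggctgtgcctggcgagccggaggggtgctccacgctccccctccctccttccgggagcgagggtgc
Pdgfra: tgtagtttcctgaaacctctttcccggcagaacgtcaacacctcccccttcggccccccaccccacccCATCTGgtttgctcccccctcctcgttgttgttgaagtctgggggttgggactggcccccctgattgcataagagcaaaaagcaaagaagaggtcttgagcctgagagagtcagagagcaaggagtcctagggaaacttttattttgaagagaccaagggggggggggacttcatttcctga
The Bmp4 window held none of the 4 motifs. The Lhfpl3 window held CAGCTG at 158 to 153 and again at 149 to 144 bases before the start. The Pdgfra window held CAGATG on the opposite strand, printed as CATCTG, at 182 to 177 bases before the start. Windows were at hand for 6 of the 10 genes (Pdgfra, Cspg4, Neu4, Olig2, Bmp4 and Lhfpl3), and 3 of them held any of the 4 motifs, against 44.1% of 32851 mouse windows of the same length. ACAATG was in the Olig2 window only, on the opposite strand at 68 to 63 bases before the start, against 10.7% of all windows, and ACAAAG was in none of the 6, against 16.5%. CAGCTG was in 13.0% and CAGATG in 14.4% of all windows. These matches describe letters and not binding.

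Several of the genes share their locus with another gene on the opposite strand, and whether the counting used strand is not given in the sources used here. Gpr17 lies wholly within the span of Lims2, over 6874 shared bases. Lims2 itself went from 7.87 ± 0.947 CPM in sham to 14.3 ± 1.37 CPM in KA (SD, n = 3), a log2 fold change of 0.86 (edgeR adjusted p = 0.0137). C1ql1 lies wholly within the span of Nmt1, which fell from 273.6 ± 17.3 to 194.3 ± 6.0 CPM (SD, n = 3), a log2 change of -0.49 (edgeR adjusted p = 0.0165). C1ql1 and Nmt1 therefore went in opposite directions. Cspg4 shares 6812 bases with Odf3l1, whose mean was at most 0.146 CPM in any group.

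With NBP added to KA, the levels were lower than after KA alone for most of the genes. C1ql1 fell by 0.68 on the log2 scale (SE 0.13, edgeR adjusted p = 0.00885), Cspg4 by 0.44 (SE 0.10, adjusted p = 0.0148), Neu4 by 0.56 (SE 0.12, adjusted p = 0.0143), Lhfpl3 by 1.19 (SE 0.26, adjusted p = 0.0140) and Olig1 by 0.36 (SE 0.10, adjusted p = 0.0319). Bmp4 and Gpr17 did not pass, at log2 fold changes of -1.31 (SE 0.45, edgeR adjusted p = 0.0628) and -0.71 (SE 0.23, adjusted p = 0.0522). Olig2 stood at -0.30 (edgeR adjusted p = 0.137), Sox10 at -0.43 (adjusted p = 0.109) and Pdgfra at -0.07 (adjusted p = 0.438). The count of 5 lower and none higher compares with 12.7% lower and 10% higher among all genes tested, 22.7% in either direction. For 9 of the 10 genes, all but Pdgfra, every KA+NBP library lay below every KA library, against 20.4% of all genes, and 16.2% of all genes lay the other way round. The median log2 fold change was -0.50 over the 10 genes and -0.01 over all genes. Without KA+NBP replicate 2, 8 genes passed, Bmp4, Gpr17 and Sox10 in addition, with Bmp4 at -2.10. Without KA+NBP replicate 3 the count was 2, and with only the KA and KA+NBP libraries in the fit it was also 2. This comparison shares its KA libraries with that of KA against sham.

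Against sham, no gene of the 10 passed in KA+NBP by edgeR or DESeq2, and 1 of them, Neu4, had an unadjusted p below 0.05. Over all genes tested edgeR called 0.00%, with 248 genes at an unadjusted p below 0.05, and DESeq2 called 1 gene. The 10 log2 fold changes lay between -0.13 for Sox10 and 0.33 for Lhfpl3 and Bmp4. Neu4 stood at 0.30 (SE 0.12, 95% interval 0.02 to 0.58, edgeR adjusted p = 1) and alone of the 10 had every KA+NBP library above every sham library, a pattern found in 3.29% of all genes, with 3.08% the other way round. Between same-numbered sham and KA+NBP libraries, Neu4, Gpr17 and Lhfpl3 were higher in KA+NBP in all 3 pairs, for Lhfpl3 by as little as 0.00190 CPM. How often this held over all genes was not counted, and the labels do not link the numbers. With the replicate block Neu4 and Gpr17 stood at 0.30 and 0.26 on the log2 scale, both at an edgeR adjusted p of 0.999. The intervals left room for changes: that of Bmp4 ran from -0.74 to 1.4 on the log2 scale, while that of Pdgfra ran from -0.09 to 0.20. Within KA+NBP the libraries differed. Of the 8 genes called higher in KA, replicate 2 exceeded every sham library for 4 (Neu4, Gpr17, Bmp4 and Lhfpl3), where over all 2802 genes called higher in KA it did so for 84.5%. Replicate 1 exceeded every sham library for 4 of the 8 (Cspg4, Neu4, C1ql1 and Olig2), against 21.4% of those genes, and replicate 3 for Neu4 alone, against 26.9%.

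Levels between genes were compared in TPM, which divides by transcript length. In sham, Olig1 led at 117.5 ± 8.41 TPM, followed by Sox10 at 46.2 ± 8.22 TPM (SD, n = 3). Gpr17, Olig2 and Pdgfra came next, at means of 27.7, 26.6 and 26.1 TPM that overlapped. Lhfpl3 and C1ql1 overlapped at 14.8 and 13.9 TPM, and Cspg4 at 9.04, Neu4 at 7.18 and Bmp4 at 2.18 TPM closed the order without overlap. In KA the order by mean was another: Gpr17 at 50.8 ± 18.2 TPM and Lhfpl3 at 40.0 ± 4.00 TPM overlapped, Gpr17 also overlapped Sox10 at 53.7 ± 6.36 TPM, and Lhfpl3 stood above Olig2 at 33.6 ± 1.44 TPM in every library. Near the bottom, Neu4 at 12.3 ± 1.20 TPM overlapped Cspg4 at 11.8 ± 0.233 TPM. Pdgfra, at 26.9 ± 1.58 TPM, came sixth. In KA+NBP the order by mean was that of sham. The ranges of Sox10, Gpr17, Olig2, Pdgfra, Lhfpl3 and C1ql1 each overlapped that of the neighbour, as those of Cspg4 and Neu4 did. Within each KA+NBP library Sox10 stood above Gpr17 and Pdgfra above Lhfpl3, while the other overlapping neighbours changed order between libraries.

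Pdgfra varied least, so the other genes were set against it within each library, as a ratio of TPM values given without a test. The ratio of Lhfpl3 to Pdgfra was 0.577, 0.638 and 0.479 in the sham libraries, 1.43, 1.33 and 1.72 after KA and 0.565, 0.977 and 0.490 after KA with NBP. It was below Pdgfra in all sham libraries and above it in all KA libraries. That of Gpr17 was 0.933, 1.26 and 0.986 in the sham libraries, 1.46, 2.68 and 1.54 after KA and 1.13, 1.31 and 1.19 after KA with NBP, the KA libraries again being highest. That of Bmp4 was 0.0580, 0.103 and 0.0877 in the sham libraries, 0.243, 0.236 and 0.242 after KA and 0.0412, 0.180 and 0.0796 after KA with NBP. The ratios of Neu4, C1ql1 and Cspg4 also lay higher in every KA library than in any sham library, whereas those of Olig1, Olig2 and Sox10 overlapped.

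**Figure D3:**
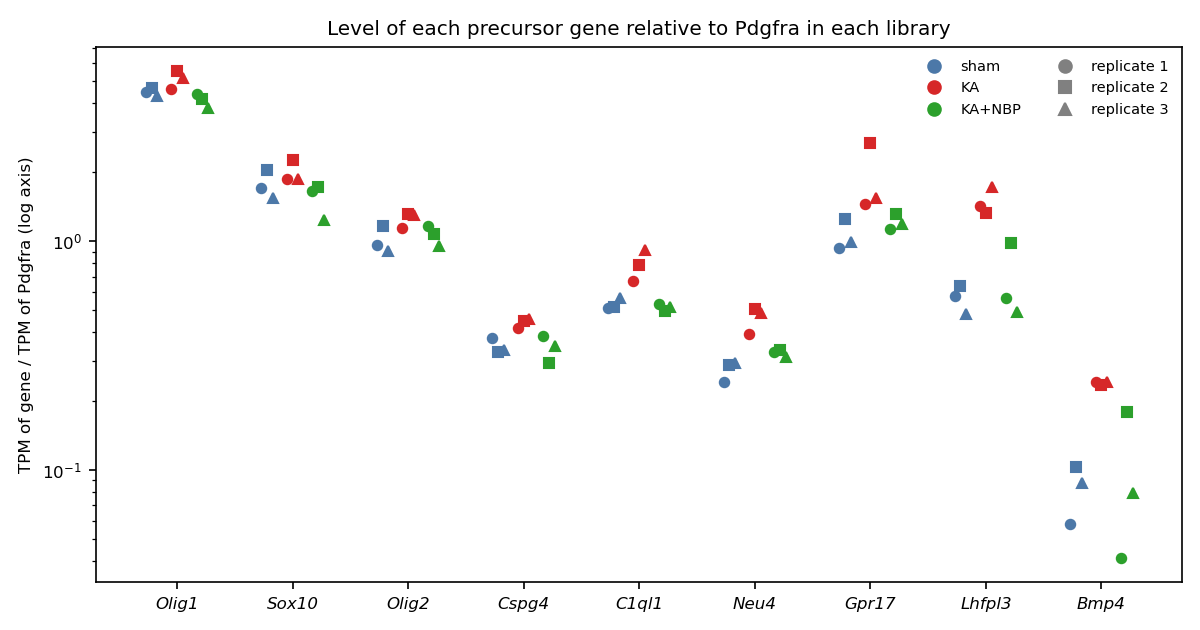
Ratio of each gene's TPM to that of Pdgfra in the same library, on a log axis. Points are libraries, colours are groups and symbols are replicate numbers. For Lhfpl3 the ratio is 0.479 to 0.638 in sham and 1.33 to 1.72 in KA, while the ratios of Olig1, Sox10 and Olig2 overlap between those groups.

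Other genes of the lineage were described from lists, some of which share members (Sox5 and Sox6, for example, are on both the precursor and the transcription factor list). Of 16 further precursor genes, 7 rose in KA and none fell, beside 19.0% higher and 14.6% lower among all genes tested. Lims2, whose span holds Gpr17, was among the 7, and whether the counts of these overlapping genes are separate was not tested. The median log2 fold change of the 16 was 0.36. Emid1, which encodes a matrix protein, stood at 5.49, 4.60 and 3.70 CPM in sham, 24.0, 21.5 and 25.1 CPM in KA, and 4.77, 10.7 and 3.33 CPM in KA+NBP, a log2 fold change in KA of 2.35 (SE 0.36, edgeR adjusted p = 0.00263). Matn4, a matrilin of the extracellular matrix, went from 8.72 ± 0.611 to 19.6 ± 0.324 CPM (SD, n = 3; log2 fold change 1.17, edgeR adjusted p = 8.06e-04). Megf11, a membrane protein with EGF-like repeats, rose by 2.07 on the log2 scale (edgeR adjusted p = 0.00689), and Pcdh15, a protocadherin, by 1.03 (adjusted p = 0.00939). In KA+NBP against KA 7 of the 16 fell, Lims2 again among them, beside 12.7% of all genes tested. That count was 4 without KA replicate 1 and 2 without KA replicate 2, KA replicate 3, KA+NBP replicate 1 or KA+NBP replicate 3.

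Of 10 genes of committed precursors and newly formed oligodendrocytes, 3 rose and 1 fell in KA, beside 19.0% and 14.6% of all genes tested. Itpr2, an intracellular calcium channel, went from 33.4 ± 1.31 to 67.2 ± 2.69 CPM (SD, n = 3; log2 fold change 1.01, edgeR adjusted p = 8.06e-04). Tns3, a tensin, rose by 0.77 (adjusted p = 0.00322) and Kif19a, a kinesin, by 0.96 on the log2 scale (edgeR adjusted p = 0.0249). Rras2, a small GTPase, fell by 0.33 (edgeR adjusted p = 0.0358), a call lost when any 1 sham or KA library was left out. The count of 3 was 6 without KA+NBP replicate 2 and 5 without KA+NBP replicate 3. Against KA, KA+NBP had 1 of these genes higher, Rras2, and 2 lower, Itpr2 and Tns3. The 2 lower became 6 without KA+NBP replicate 2 and 1 without KA replicate 2, KA replicate 3, KA+NBP replicate 1 or KA+NBP replicate 3, and the 1 higher became 0 without KA replicate 1, KA replicate 2, KA+NBP replicate 1 or KA+NBP replicate 3.

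Of 16 mature oligodendrocyte and myelin genes, 3 rose in KA, a share close to the 19.0% of all genes tested, and the median log2 fold change of the 16 was 0.25. The 3 were Apod, a lipid-binding apolipoprotein, at 1.44 (SE 0.35, edgeR adjusted p = 0.0138), Trf, transferrin, at 1.19 (SE 0.31, adjusted p = 0.0183), and Cldn11, the claudin of myelin, at 0.72 (SE 0.23, adjusted p = 0.0400). Trf is also made by choroid plexus. Ppp1r14a stood at 0.59 (edgeR adjusted p = 0.118). The summed level of the list was 5500 to 8138 TPM in sham, 7059 to 8944 TPM in KA and 4533 to 9860 TPM in KA+NBP, with overlap between all groups. The count of 3 was 0 without sham replicate 1, 1 without sham replicate 3 or KA replicate 3, and 5 without KA+NBP replicate 3. In KA+NBP against KA, 2 fell, Apod and Trf, a share close to the 12.7% of all genes tested. That count was 5 without KA+NBP replicate 2 and 0 or 1 without any other 1 library. Of 12 further transcription factors of the lineage, 3 rose in KA and 3 fell in KA+NBP against KA, beside 19.0% and 12.7% of all genes tested. In KA they were Zfp536 at a log2 fold change of 0.95 (edgeR adjusted p = 0.00178), Sox9 at 0.98 (adjusted p = 0.00789), which astrocytes also express, and Sox6 at 0.41 (adjusted p = 0.0316). In KA+NBP against KA the same genes stood at -0.96 (edgeR adjusted p = 0.00320), -0.84 (adjusted p = 0.0214) and -0.43 (adjusted p = 0.0344). The second count was 1 without KA replicate 2, KA replicate 3, KA+NBP replicate 1 or KA+NBP replicate 3.

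The ligands of PDGFRA did not move alike. Pdgfa, its main ligand in the brain, stood at 25.0, 27.7 and 24.4 CPM in sham, 23.4, 24.2 and 26.2 CPM in KA, and 23.6, 20.2 and 22.2 CPM in KA+NBP, and sham and KA overlapped (log2 fold change -0.06, SE 0.09, edgeR adjusted p = 0.630). Pdgfc, also a ligand of PDGFRA, stood at 0.59 (SE 0.25, edgeR adjusted p = 0.0970). Pdgfb, which binds both PDGF receptors, rose by 0.69 on the log2 scale (SE 0.10, edgeR adjusted p = 0.00186). Pdgfd rose by 1.39 (edgeR adjusted p = 0.00364) and the partner receptor Pdgfrb, a mural cell gene, by 0.70 (adjusted p = 0.00452). In KA+NBP against KA, Pdgfb and Pdgfrb fell, by 0.73 (edgeR adjusted p = 0.00293) and 0.57 on the log2 scale (adjusted p = 0.0148). These were 2 of the 5 genes of this list, beside 12.7% lower among all genes tested. That count of 2 was 4 without KA+NBP replicate 2 and 1 without KA+NBP replicate 1 or KA+NBP replicate 3.

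Of 22 other genes of the bone morphogenetic protein pathway, 5 rose and 4 fell in KA. These shares were close to the 19.0% higher and 14.6% lower among all genes tested. Among targets of the pathway Id3 rose by 1.72 on the log2 scale (SE 0.32, edgeR adjusted p = 0.00479), Id2 by 0.81 (SE 0.18, adjusted p = 0.0103) and the inhibitory Smad7 by 0.94 (SE 0.20, adjusted p = 0.00776). These targets are expressed by many cell types. Of the ligands related to Bmp4, Bmp6 rose from 7.5 ± 1.90 to 27.4 ± 4.75 CPM (SD, n = 3; log2 fold change 1.87, edgeR adjusted p = 0.0202), whereas Bmp2 fell by 0.69 (adjusted p = 0.0475). Among receptors, Acvr1 rose by 0.59 (edgeR adjusted p = 0.0496) and Bmpr2 fell by 0.31 (adjusted p = 0.0485). Smad4, the shared partner of the signalling SMADs, fell by 0.30 (edgeR adjusted p = 0.00457). Of the antagonists that bind these ligands, Chrd fell by 0.71 (edgeR adjusted p = 0.0444) and Nog stood at -0.47 (adjusted p = 0.134). The 5 higher were 3 without any 1 sham library, KA replicate 1 or KA replicate 2, and 11 without KA+NBP replicate 2. The 4 lower were 1 without any 1 sham library, KA replicate 1 or KA+NBP replicate 1, and 2 without KA replicate 3 or KA+NBP replicate 3. Against KA, KA+NBP had 2 of these genes higher and 3 lower. The 3 lower were Id3, Smad7 and Id2, and the count was 13 without KA+NBP replicate 2 and 0 without KA+NBP replicate 1. The 2 higher were Smad4 and Grem1, and their count was 1 with any 1 sham library, KA replicate 1 or 2, or KA+NBP replicate 1 or 3 left out.

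Of 10 tested paralogs and partners of these genes, edgeR called none higher in KA, against 19.0% of all genes tested, and 2 lower, against 14.6%. DESeq2 also called none higher, and 1 was called higher with only the sham and KA libraries in the fit. The fold change was above 0 for 5 of the 10, and 4 had an unadjusted p below 0.05 in either direction. C1ql2, a paralog of C1ql1 made by dentate granule neurons, fell from 83.0 ± 3.22 to 37.8 ± 13.9 CPM and stood at 89.7 ± 5.20 CPM in KA+NBP (SD, n = 3; edgeR adjusted p = 0.00459 in KA against sham and 0.00555 in KA+NBP against KA). Lhfpl5 fell by 0.85 on the log2 scale (edgeR adjusted p = 0.0362). Adgrb3, the receptor for C1ql1, stood at -0.44 in KA against sham (edgeR adjusted p = 0.0644) and rose by 0.53 in KA+NBP against KA (adjusted p = 0.0440). The other sialidases Neu1, Neu2 and Neu3 stood at 0.11, 1.32 and 0.12 in KA (edgeR adjusted p = 0.243, 0.0733 and 0.774). For Neu1 and Neu2 every KA library lay above every sham library, as for 29.3% of all genes tested. For 4 of the 10 every KA library lay below, as for 27.0% of all genes. Neu2 rested on few counts, 4, 7 and 4 in sham and 12, 15 and 12 in KA. Only 1 of the 2 lower passed with sham replicate 2 or 3, or KA replicate 1 or 3, left out, and C1ql2 and Adgrb3, the 2 higher in KA+NBP against KA, became 4 without KA+NBP replicate 2 and 1 without any 1 of the other libraries but sham replicate 1.

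Markers of other cell types moved in the same comparisons. Over all genes tested, 19.0% rose and 14.6% fell in KA. In KA 9 of 10 astrocyte markers and 9 of 10 microglia markers rose, with summed levels of 7622 to 8997 TPM and 1921 to 1979 TPM in KA against 2615 to 2916 TPM and 424 to 498 TPM in sham. Of 10 endothelial markers 5 rose. That count was 1 with sham replicate 1 or 2, or KA replicate 2 or 3, left out, 3 with sham replicate 3 or KA replicate 1 left out, and 8 with KA+NBP replicate 2 left out. Of 10 neuron markers 4 fell, and of 8 neuroblast markers 1 fell, or 2 with KA replicate 1 or KA+NBP replicate 2 left out. Of 8 tested proliferation genes 5 rose, a count that was 0 without sham replicate 3 and 2 without sham replicate 1, KA replicate 2 or KA replicate 3. The 5, named after their values were seen, were Mki67, Top2a, Cdk1, Birc5 and Mcm2, with log2 fold changes of 1.73, 2.10, 2.97, 1.61 and 0.56. Cdk1, the largest, rested on 2, 5 and 1 counts in sham and 16, 21 and 30 in KA. Birc5 rested on 11, 8 and 5 counts in sham and 18, 29 and 29 in KA. The list summed to 96.7 to 99.8 TPM in sham and 98.2 to 105 TPM in KA, most of it from Pcna, at 74.9 to 89.0 TPM in every library and a log2 fold change near 0 (edgeR adjusted p = 0.971). In KA+NBP against KA, 9 of 10 microglia, 7 of 10 astrocyte, 7 of 11 mural, 4 of 10 fibroblast and 2 of 10 endothelial markers fell, against 12.7% of all genes tested, and 3 of 10 neuron markers and 1 each of the neuroblast and choroid plexus markers rose. None of the 8 tested proliferation genes was called there by edgeR, with 4 at an unadjusted p below 0.05, and DESeq2 called 1 lower. With KA+NBP replicate 2 left out, 11 mural, 10 fibroblast and 8 endothelial markers fell. With KA+NBP replicate 1 left out the astrocyte, mural, fibroblast and endothelial counts were 2, 1, 2 and 0, and with KA+NBP replicate 3 left out they were 3, 2, 2 and 0. With KA replicate 1, 2 or 3 left out the astrocyte count was 4, 2 and 2 and the endothelial count 0, and with KA replicate 1 or 2 left out the mural count was 4 and the fibroblast count 2. With sham replicate 1 or 2 left out the fibroblast count was 2, and the endothelial count was 1, 0 and 1 with sham replicate 1, 2 or 3 left out. The neuron count was 1 with KA replicate 1 or 3, or KA+NBP replicate 1 or 3, left out. The part of these cell types in the levels of the 10 genes was not tested.

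**Figure D4:**
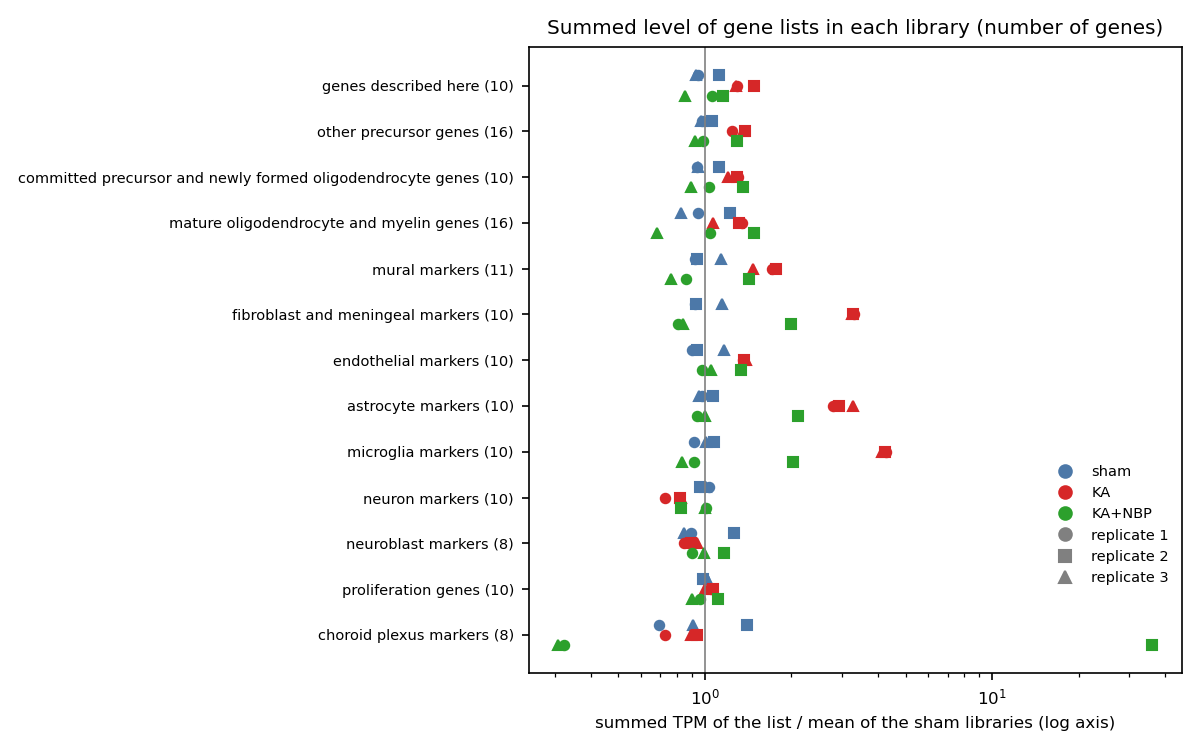
Summed TPM of each gene list in each library, divided by its mean over the sham libraries, on a log axis. Points are libraries, colours are groups and symbols are replicate numbers, with the number of genes in parentheses. The 10 genes described here lie within 372 to 430 TPM in KA against 271 to 327 TPM in sham, and the choroid plexus list stands apart in KA+NBP replicate 2.

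The genes whose profiles over the 9 libraries were most like each of the 10 were taken from 11713 candidates of at least 5 CPM on average, by the root mean square difference of centred log2 CPM. Lhfpl3 was nearest to Cd151 at 0.0902, followed by Slc7a2 and Pmp22 at 0.113, where the median candidate differed by 0.754. Bmp4 was nearest to Lcp1 (0.128), Pros1 (0.174) and Tifab (0.186), against a median of 0.917. Neu4 was nearest to Ifi27 (0.0909), Pcdhga7 and Arhgap24, and Gpr17 to Parp12 (0.147), Pcdhga7 and Dtx3l, so that Pcdhga7 was near to both. C1ql1 was nearest to Slc23a2 (0.0660), Slc9a3r2 and Shisal1, and Cspg4 to AI413582 (0.0599), Cndp2 and Cerk. Olig1 was nearest to Slc22a23 (0.0498), Fat1 and Fem1c, Olig2 to Acyp2 (0.0817), Fem1c and Cmtm5, and Sox10 to Gna12 (0.0503), Gab1 and Rlbp1. Pdgfra, whose own profile had an SD of 0.0747, was nearest to Rpl8 (0.0349), Papss1 and Naca. None of the 10 genes was eligible as a neighbour of another.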

How the data were processed

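Total RNA of 9 mouse hippocampi was extracted with TRIzol, per the labels' protocols. The authors deposited estimated counts, FPKM and TPM per gene in 1 table of 18474 protein-coding genes, and a line without a gene name was left out. Bowtie2, RSEM 1.3.1 and DESeq2 1.4.5 and the build GRCm39 are named in the submitters' processing notes, with no role stated. The deposited FPKM and TPM values were made by the authors. Per library 5.65 to 6.61% of the estimated counts were not whole, and they were rounded here.

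The main test was edgeR 4.0.16 (R 4.3.3), its quasi-likelihood F test with TMM scaling and filterByExpr, fitted on all 9 libraries with a mean per group. P-values were adjusted by Benjamini-Hochberg over the 14752 genes tested, with a threshold of 0.05. SEs were computed from the fold change and F, and intervals are 95%. Alternatives were DESeq2 1.42.0, RLE scaling, no filter, only the groups compared, limma 3.58.1 on log2(FPKM + 0.1) and log2(FPKM + 1), a replicate block, and each library left out. The fits were tested on simulated data. TPM served for levels between genes, and log2 CPM with a prior count of 2 for profiles.

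All 10 genes are named with every value. Of each related list up to 4 genes with the smallest p in KA against sham are named, with binding partners and paralogs, and the 3 nearest profiles per gene. The genes and lists were chosen with earlier results of these data known. Replicate numbers were checked for pairing by the correlation of deviations from group means. It was 0.301, 0.332 and 0.126 between same-numbered sham and KA+NBP libraries, all over 0.1. Same-numbered libraries gave between -0.05 and 0.04 where KA was involved. Differently numbered sham and KA+NBP libraries ran from -0.31 to 0.192, the highest being KA+NBP replicate 3 with sham replicate 1. The number therefore did not set replicate 3 apart. The main test did not pair libraries. Same-numbered sham and KA+NBP libraries were treated as pairs only in the alternative fit with the replicate block and in the counts of pairs. That choice came from the values alone, and the labels do not link them. The block left KA+NBP against sham at 0 calls. Sequence windows came from RefSeq (GRCm38.p6). Those of Cspg4, Neu4 and Olig2, which run into a transcript, were searched but are not printed.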

Additional observations from a re-analysis of the deposited data

How the results depend on the processing

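Of 16 alternative settings for each of the 10 genes, 139 of 160 values for KA against sham and 138 of 160 for KA+NBP against KA kept their direction and their side of the threshold. In KA against sham 20 lost the call and 1 gained it, and in KA+NBP against KA 12 lost and 10 gained it; none changed direction. C1ql1 kept its call in all 16 settings of both comparisons. Olig1 lost its call in KA against sham with RLE scaling (edgeR adjusted p = 0.0504) and with no filter (adjusted p = 0.0545). Bmp4 passed in KA+NBP against KA with DESeq2 (adjusted p = 0.0333). With 1 library left out, 4 to 8 of the 10 genes passed in KA against sham and 2 to 8 in KA+NBP against KA. Over all genes these ranges were 2721 to 6700 calls beside 4961, 1295 to 6355 beside 3355, and 0 to 1 beside 0 in KA+NBP against sham. With only the KA and KA+NBP libraries in the fit, 1065 genes and 2 of the 10 passed. DESeq2 called 1 gene in KA+NBP against sham. With the replicate block, 8 of the 10 passed in KA+NBP against KA and 9 in KA against sham, where Sox10 passed in addition (edgeR adjusted p = 0.0493), with 4784 and 3189 genes called in KA against sham and KA+NBP against KA. Sham and KA numbers, and KA and KA+NBP numbers, did not pair, and the block changed no call in KA+NBP against sham.

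In KA+NBP against sham, log2 fold changes near 0 changed sign when 1 library was left out, without passing the threshold. Those of Cspg4 ran from -0.0864 to 0.10, C1ql1 from -0.0353 to 0.0590, Olig1 from -0.13 to 0.0337, Sox10 from -0.25 to 0.0400, Bmp4 from -0.46 to 0.69 and Lhfpl3 from -0.0729 to 0.55. Bmp4 and Lhfpl3 turned negative without KA+NBP replicate 2. The cause was not tested. Scaling shifted the median of all genes by at most 0.05. Bmp4 rested on 13 to 88 counts a library, and its intervals were the widest of the 10.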
